A study of Rattus norvegicus with 63 samples.

Results

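The miR-17 to miR-92 cluster is a group of 6 microRNAs that are cut from a single precursor transcript. Its members were taken by their names on the array: rno-miR-17, rno-miR-18a, rno-miR-19a, rno-miR-20a, rno-miR-19b and rno-miR-92a. All 6 were present among the 350 rat miRNAs on the array, and all 6 were among the 162 miRNAs that were detected on at least 1 array and tested.

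The cluster is transcribed under the control of growth-promoting transcription factors such as MYC and members of the E2F family. Its miRNAs are best known for promoting proliferation and survival: miR-17 and miR-20a, for example, repress cell cycle inhibitors and E2F transcripts. In the liver the cluster is known for raised levels in hepatocellular carcinoma.

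The livers came from male Wistar Hanover rats, 8 to 10 weeks old at the start, that received a compound or its vehicle daily by gastric gavage. Each of the 15 compounds and each of the 6 vehicle control sets was represented by 3 rats, which gave 63 arrays in 21 groups. The dose groups had 5 rats, of which the 3 profiled here were chosen by histopathology. One sample of liver was hybridized to 1 single-colour array per rat, so fewer cells of a type and less miRNA per cell cannot be told apart.

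Methylcellulose, given for 14 days, was the vehicle of control sets 1, 2, 5 and 6. Set 1 served Acetamide (AA, 3000 mg/kg/day for 14 days), Dehydroepiandrosterone (DHEA, 600 mg/kg/day for 14 days), Methylcarbamate (Mcarb, 400 mg/kg/day for 14 days), Methapyrilene HCl (MPy, 60 mg/kg/day for 7 days), Thioacetamid (TAA, 19.2 mg/kg/day for 7 days) and Wy-14643 (Wy, 60 mg/kg/day for 3 days). Set 2 served Cefuroxime (CFX, 250 mg/kg/day for 14 days) and Nifedipine (Nif, 3 mg/kg/day for 14 days). Set 5 served Diethylstilbestrol (DES, 10 mg/kg/day for 3 days), Ethionine (ETH, 200 mg/kg/day for 14 days) and Piperonylbutoxide (PBO, 1200 mg/kg/day for 3 days). Set 6 served Phenobarbital sodium (PB, 14 days, with a dose in the study's methods but not in the labels). Corn oil was the vehicle of set 3, given for 7 days and serving C.I Direct Black (CIDB, 146 mg/kg/day for 7 days) and Dimethylnitrosamine (DMN, 4 mg/kg/day for 7 days), and of set 4, given for 14 days and serving Cyproterone acetate (CPA, 100 mg/kg/day for 14 days). By these labels MPy, TAA, Wy, DES and PBO were given for fewer days than their vehicle, whereas the study's methods call the vehicle groups matched in time. If the labels hold, the compound and the length of dosing cannot be told apart in those comparisons. The study classed PB, PBO, DHEA, AA, MPy, Mcarb, DES and ETH as non-genotoxic carcinogens (NGC), CIDB and DMN as genotoxic carcinogens (GC), and CFX and Nif as non-carcinogens (NC), and held CPA, TAA and Wy apart from these classes as undefined.

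The mature sequences show how closely the members resemble each other, which bears both on what they can bind and on what a probe can tell apart. They are given here from RefSeq (GRCr8), 5′ to 3′, in their order along the chromosome, with the seed (bases 2 to 8, the part that pairs with target transcripts) in capitals.
rno-miR-17: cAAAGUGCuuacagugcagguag
rno-miR-18a: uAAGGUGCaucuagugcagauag
rno-miR-19a: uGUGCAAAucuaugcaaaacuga
rno-miR-20a: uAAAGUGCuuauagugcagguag
rno-miR-19b: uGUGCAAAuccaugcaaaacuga
rno-miR-92a: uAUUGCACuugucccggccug

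All 6 lay on the plus strand of chromosome 15, within 762 bases. miR-17 was at chr15:98587861-98587883, miR-18a at chr15:98588000-98588022, miR-19a at chr15:98588179-98588201, miR-20a at chr15:98588318-98588340, miR-19b at chr15:98588486-98588508 and miR-92a at chr15:98588602-98588622. Identical mature sequences of 3 members, miR-17, miR-19b and miR-92a, were also listed on the minus strand of chromosome X, at chrX:137343615-137343637, chrX:137343070-137343092 and chrX:137342945-137342965. An array reads the mature sequence, so the signal of these 3 cannot be assigned to one of the loci.

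The members fell into 4 seed families. miR-17 and miR-20a shared the seed AAAGUGC, carried by 5 of the 693 mature rat miRNA names in the sequence table (0.722%). miR-18a had AAGGUGC, a seed found in that 1 name alone. miR-19a and miR-19b shared GUGCAAA, carried by 2 names, and miR-92a had AUUGCAC, carried by 5. Counted from the 5′ end, miR-19a and miR-19b differed by U11C only, and miR-17 and miR-20a by C1U and C12U. Shared signal between probes to such near-identical miRNAs cannot be told apart from a shared change in level.

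Related sequences from the paralogous cluster on the minus strand of chromosome 12 carry 2 of these 4 seeds, those of miR-17 with miR-20a and of miR-92a.
rno-miR-106b: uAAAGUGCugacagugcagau
rno-miR-93: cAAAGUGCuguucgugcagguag
rno-miR-25: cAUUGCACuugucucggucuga

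They were at chr12:22157103-22157123, chr12:22156894-22156916 and chr12:22156652-22156673. miR-106b differed from miR-20a at U10G, U12C and G20A over its length, and miR-25 from miR-92a at U1C, C14U and C18U.

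The arrays were scanned from 9 slides on 3 days, and several compounds shared neither a slide nor a scan day with their control set. Day 1 held 30 arrays with a median spot brightness of 193.5 to 243.5, day 2 held 28 arrays at 140 to 153.5, and day 3 held 5 arrays at 75 to 78. DES, TAA and Wy had no array scanned on the same day as their control sets. An array detected 81 to 151 of the miRNAs (median 107).

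The deposited value table did not follow the scanner arrays for 15 of its 63 columns. Over 71 miRNAs these columns correlated with their own array at r = -0.05 to 0.67 and with an array filed under another group at r = 0.84 to 0.96. The columns named DES and DHEA followed each other's arrays, and the columns of methylcellulose sets 1, 5 and 2 followed the arrays filed under sets 5, 2 and 1. Which assignment is right cannot be told from these files. The values below use the arrays as filed, and the calls that rest on these groups are also given with the array of each sample taken as the value table has it, called the value table's assignment. Under it, DHEA minus set 1 holds the same arrays as DES minus set 5 as filed, so its values repeat those of DES and add no second support.

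miR-19a, miR-19b, miR-20a and miR-92a were well above background on all 63 arrays, miR-17 on 43 and miR-18a on 1, a CIDB rat. In the 18 vehicle rats, the log2 expression was 8.13 ± 0.13 (SD) for miR-19a, 9.54 ± 0.16 for miR-19b, 8.61 ± 0.12 for miR-20a, 8.81 ± 0.10 for miR-92a, 7.58 ± 0.016 for miR-17 and 7.47 ± 0.010 for miR-18a. These values belong to different probes and do not rank the members against each other. Background was not subtracted from them, so the differences of all members are compressed, most for the dimmest, miR-17 and miR-18a.

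Without background subtraction the called changes of the members other than miR-18a were 1.05-fold to 1.36-fold, and not all in one direction. Each compound was compared with its own control set in limma, a linear model with a moderated variance fitted to all 63 arrays, and a miRNA was called when its Benjamini-Hochberg adjusted p over the 162 tested miRNAs was under 0.05. Of 90 comparisons of a member with a control set, 15 were called (16.7%), 13 higher and 2 lower. Over all tested miRNAs 14.3% of the comparisons were called, 7.57% higher and 6.71% lower. Of the 15 calls, 6 belonged to miR-18a, a member that only 1 array showed well above background. The other 5 members gave 9 calls, a grouping made after the detection of miR-18a was seen. The split of 13 higher against 2 lower became 1 against 2 with slide as a block, where 3.37% of all comparisons were called, and 12 against 7 with all control rats of a vehicle as reference (18.4%). It was 14 against 0 with probe 2 alone (14.2%), and 11 against 4 both in the deposited value table (14.0%) and under its assignment of the arrays (11.5%).

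Several of the sizes were larger where background was subtracted. In the scanner's processed signal, which has background subtracted, scaled by the 75th percentile of the miRNAs detected on all arrays, 25 member comparisons were called higher and 3 lower, where 20.1% of all comparisons were called. miR-19a in TAA was then at a log2 fold change of 1.27 (2.40-fold; limma, adjusted p = 3.98e-11), miR-20a in DHEA at 0.70 (1.62-fold; limma, adjusted p = 5.21e-05), miR-19b in ETH at 0.63 (1.54-fold; limma, adjusted p = 4.21e-05) and miR-19a in ETH at 0.58 (1.49-fold; limma, adjusted p = 0.00109). With the same scaling miR-19b in CPA (-0.23; limma, adjusted p = 0.171) and miR-19a in DES (0.16; limma, adjusted p = 0.339) were not larger and not called. This scaling also moved the median of all tested miRNAs, to 0.26 in TAA, 0.38 in MPy and 0.12 in both DHEA and ETH. Scaled by the 75th percentile of all probes, 7 member comparisons were called higher and 4 lower (13.5% of all), and the median of all miRNAs was -0.26 in TAA. miR-19a in TAA was then at 0.69 (limma, adjusted p = 0.00996), while miR-20a in DHEA (0.56, limma, adjusted p = 0.0545), miR-19b in ETH (0.46, adjusted p = 0.147) and miR-19a in ETH (0.42, adjusted p = 0.256) were not called.

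**Figure D1:**
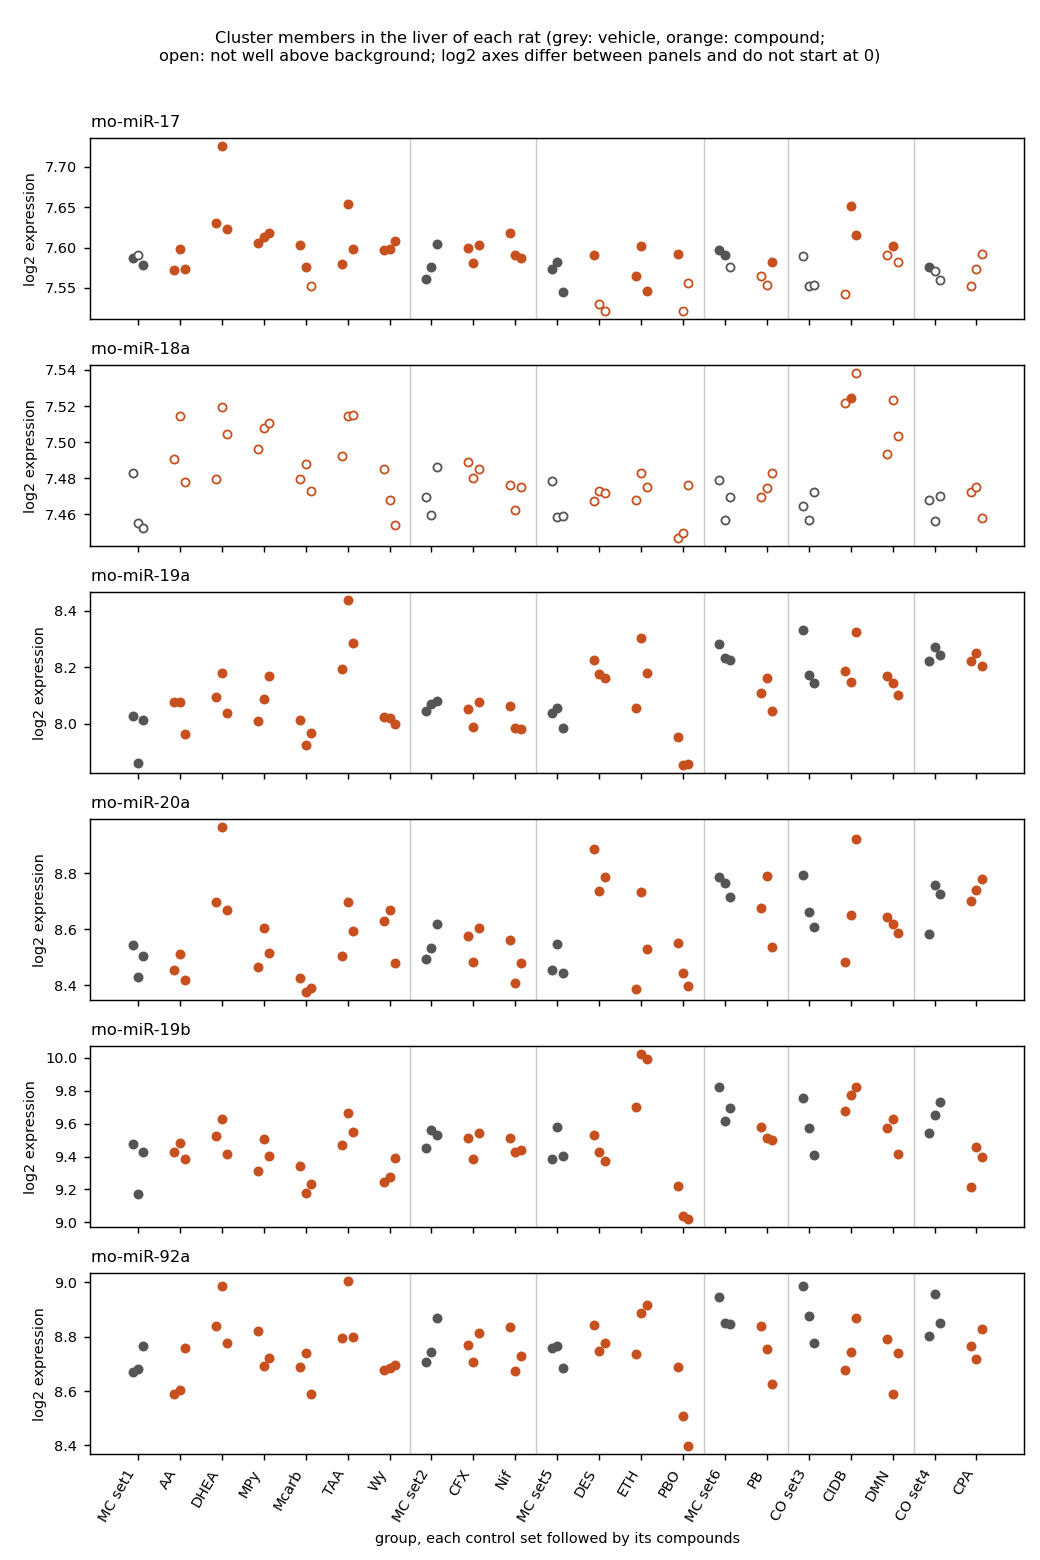
Log2 expression (y axes, which differ between panels and do not start at 0) of each member in each of the 63 rats, by group (x axis), with vehicle rats in grey, treated rats in orange and open symbols for values not well above background. miR-19b in ETH lies between 9.70 and 10.02, above the 3 rats of methylcellulose set 5, and in PBO between 9.02 and 9.22, below them.

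miR-19b changed in 3 compounds. It was 1.36-fold higher in livers of rats given ETH, an analogue of methionine that disturbs methylation, and lower in those given PBO, an insecticide synergist, and CPA, a synthetic antiandrogen. In ETH the 3 rats were at 9.70, 10.02 and 9.99 on the log2 scale, against 9.38, 9.58 and 9.41 in methylcellulose set 5. All ETH values lay above all control values, as those of 16.7% of all tested miRNAs did. The log2 fold change was 0.45 ± 0.084 (SE; limma, adjusted p = 0.000113), in a comparison in which 16% of the tested miRNAs were called. In PBO the rats were at 9.22, 9.04 and 9.02, all below the same controls, with a log2 fold change of -0.36 (1.29-fold lower; limma, adjusted p = 0.00220) where 8.64% of the miRNAs were called. Of all tested miRNAs, 21% lay below all controls in PBO.

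Under the value table's assignment the log2 fold change of miR-19b was 0.39 in ETH (limma, adjusted p = 0.000572) and -0.42 in PBO (limma, adjusted p = 0.000351). The slides bore on these values differently. PBO and 2 of its 3 controls were on slide 6, and within that slide the log2 fold change was -0.40. With slide as a block it was also -0.40 (limma, adjusted p = 0.00797). ETH shared no slide with its controls, and with slide as a block its log2 fold change was 0.72 (limma, adjusted p = 0.178). Under the value table's assignment the ETH controls were on the same slide as ETH, slide 7, and with slide as a block the log2 fold change was then 0.39 (limma, adjusted p = 0.00120). PBO then shared no slide with its controls, and with slide as a block miR-19b was no longer called in PBO. All ETH arrays and their controls were scanned on day 2.

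In CPA miR-19b was at 9.21, 9.46 and 9.40, against 9.54, 9.65 and 9.73 in the corn oil set 4. The groups did not overlap, where 11.1% of all tested miRNAs lay below all controls. All 6 arrays were on slide 1. The log2 fold change was -0.28 (1.22-fold lower; limma, adjusted p = 0.0324) where 5.56% of the miRNAs were called. Leaving out 1 rat ended the call in 4 of 6 cases: without control rat 2 the log2 fold change was -0.28 (adjusted p = 0.0903), without control rat 3 -0.24 (0.155), without CPA rat 1 -0.21 (0.177) and without CPA rat 3 -0.30 (0.0536). The 2 probes of miR-19b gave different sizes for both decreases. With probe 1 alone the log2 fold change was -0.48 in PBO (limma, adjusted p = 9.57e-05) and -0.41 in CPA (limma, adjusted p = 0.00202), while with probe 2 alone it was -0.24 in PBO (limma, adjusted p = 0.102) and -0.16 in CPA (limma, adjusted p = 0.362).

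miR-19b did not pass the threshold elsewhere with the values used here. In TAA the rats were at 9.47, 9.67 and 9.55, against 9.48, 9.17 and 9.43 in methylcellulose set 1, a log2 fold change of 0.20 (limma, adjusted p = 0.0798). In CIDB, an azo dye, they were at 9.68, 9.78 and 9.83, against 9.76, 9.57 and 9.41 in the corn oil set 3, a log2 fold change of 0.18 (limma, adjusted p = 0.124). In the processed signal scaled by detected miRNAs, miR-19b was called in TAA (0.49, limma, adjusted p = 0.000449) and CIDB (0.54, adjusted p = 0.000178), but in neither when it was scaled by all probes (-0.084 and 0.38). In PB they were at 9.58, 9.51 and 9.50, all below the 9.82, 9.62 and 9.70 of methylcellulose set 6, a log2 fold change of -0.18 (limma, adjusted p = 0.429).

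miR-19a, which shares the seed of miR-19b, was higher in TAA, DES and ETH. In TAA, a hepatotoxin that causes centrilobular injury, the rats were at 8.19, 8.44 and 8.29, against 8.03, 7.86 and 8.01 in methylcellulose set 1. No TAA value reached down to the controls, where 17.9% of all tested miRNAs lay above all controls. The log2 fold change was 0.34 ± 0.054 (SE; 1.26-fold; limma, adjusted p = 6.44e-06), where 21.6% of the miRNAs were called, and 0.28 under the value table's assignment (limma, adjusted p = 0.000247). TAA was scanned on day 1 and its controls on days 2 and 3. With scan day as a block the log2 fold change was 0.23 (limma, adjusted p = 0.0180), and with slide as a block 0.097 (limma, adjusted p = 0.911). In the processed signal it was 1.27 or 0.69, by the scaling, and it was 0.80 in the deposited value table (limma, adjusted p = 0.000748).

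The other increases of miR-19a were smaller. In DES, a synthetic oestrogen, the rats were at 8.23, 8.18 and 8.16, all above the 8.04, 8.06 and 7.98 of methylcellulose set 5, with a log2 fold change of 0.16 (1.12-fold; limma, adjusted p = 0.0157) where 37% of the miRNAs were called. In ETH they were at 8.06, 8.30 and 8.18, of which the lowest lay barely above the highest control, with a log2 fold change of 0.15 (1.11-fold; limma, adjusted p = 0.0415). Of all tested miRNAs, 27.2% lay above all controls in DES and 16.7% in ETH. Under the value table's assignment neither was called: DES had a log2 fold change of 0.039 (limma, adjusted p = 0.715) and ETH of 0.11 (limma, adjusted p = 0.136). The DES call was lost without DES rat 1 (adjusted p = 0.0676) or control rat 9 (0.0746), and the ETH call without ETH rat 2 or 3 or any 1 of the 3 controls. DES shared no slide or scan day with its controls, and its log2 fold change was 0.041 with scan day as a block (limma, adjusted p = 0.810) and 0.039 with slide as a block (limma, adjusted p = 0.982). ETH with slide as a block was at 0.27 (limma, adjusted p = 0.610).

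Lower values of miR-19a were found in PBO and PB without passing the threshold. In PBO it was at 7.95, 7.85 and 7.86 (log2 fold change -0.14; limma, adjusted p = 0.0961). In PB, a barbiturate that induces drug-metabolizing enzymes, it was at 8.11, 8.16 and 8.04, against 8.28, 8.23 and 8.23 in its controls (log2 fold change -0.14; limma, adjusted p = 0.163). Both groups of treated rats lay below all of their controls, as 21% of all tested miRNAs did in PBO and 9.26% in PB. miR-19a in PBO was called under the value table's assignment, with a log2 fold change of -0.18 (limma, adjusted p = 0.0198), as was miR-19a in DHEA with 0.16 (limma, adjusted p = 0.0157). The DHEA value repeats that of DES as filed, on the same arrays.

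miR-20a was higher in DES and DHEA. In DES the rats were at 8.89, 8.74 and 8.79, against 8.46, 8.55 and 8.44 in methylcellulose set 5, a log2 fold change of 0.32 ± 0.079 (SE; 1.25-fold; limma, adjusted p = 0.00180). In DHEA, a steroid that proliferates peroxisomes in rat liver, they were at 8.70, 8.96 and 8.67, against 8.54, 8.43 and 8.50 in set 1, a log2 fold change of 0.28 (1.22-fold; limma, adjusted p = 0.00697), where 18.5% of the miRNAs were called. Neither group overlapped its controls. In DES 27.2% of all tested miRNAs lay above all controls and 37% were called, and in DHEA 19.1% lay above them.

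These are the groups whose value table columns were exchanged, and miR-20a was called in both under either assignment of the scanner arrays. The DHEA call under the value table's assignment rests on the same arrays as the DES call as filed, so it is not a further call. In the deposited values themselves it was called in DHEA (0.62, limma, adjusted p = 0.00137) but not in DES (0.34, adjusted p = 0.127), and in the processed signal scaled by all probes DES was not called either (0.42, adjusted p = 0.119). With the arrays as the value table has them, the log2 fold change was 0.23 in DES (limma, adjusted p = 0.0409) and 0.32 in DHEA (limma, adjusted p = 0.00180). The value in DHEA depended on 1 rat: without DHEA rat 2, at 8.96, the log2 fold change was 0.19 (adjusted p = 0.145). With scan day as a block DES was at 0.20 (limma, adjusted p = 0.311) and DHEA at 0.29 (limma, adjusted p = 0.00791), and with slide as a block DES was at 0.11 (limma, adjusted p = 0.937) and DHEA at 0.16 (limma, adjusted p = 0.708).

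miR-17, which shares the seed of miR-20a, passed the threshold in DHEA only, among the 15 compounds. Its values were 7.63, 7.73 and 7.62, against 7.59, 7.59 and 7.58, a log2 fold change of 0.074 ± 0.022 (SE; 1.05-fold; limma, adjusted p = 0.0107). Without DHEA rat 2 it was 0.041 (adjusted p = 0.251), and under the value table's assignment it turned to -0.019 (limma, adjusted p = 0.504), with DES called instead (0.079; limma, adjusted p = 0.00823). With probe 1 alone it was 0.0017 (limma, adjusted p = 0.942), with probe 2 alone 0.15 (limma, adjusted p = 0.00241), and in the processed signal scaled by detected miRNAs 0.70 (limma, adjusted p = 0.123). The 2 probes of miR-17 gave fold changes over the 15 compounds that correlated at only r = 0.075.

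miR-92a, the last member along the chromosome, was not called in any compound by limma with the values used here. Over the 17 settings it was called in PBO in 8, in DMN and TAA in 2 each and in DHEA in 1. Its lowest values were in PBO, at 8.69, 8.51 and 8.40 against 8.76, 8.76 and 8.68 in set 5 (log2 fold change -0.20; limma, adjusted p = 0.0515). Its highest fold changes were 0.16 in DHEA, at 8.84, 8.99 and 8.78 (limma, adjusted p = 0.0924), and 0.16 in TAA, at 8.80, 9.0 and 8.80 (limma, adjusted p = 0.0897), against 8.67, 8.68 and 8.77 in set 1. All DHEA and TAA values lay above these controls, as 19.1% of all tested miRNAs did in DHEA and 17.9% in TAA. The PBO and control values overlapped. miR-92a was called in PBO under the value table's assignment (-0.24; limma, adjusted p = 0.0155), and was at 0.055 in DHEA (limma, adjusted p = 0.555) and 0.13 in TAA (limma, adjusted p = 0.25).

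miR-18a passed the threshold in AA, CIDB, DHEA, DMN, MPy and TAA, but its signal was well above background on 1 of these 18 arrays, so no fold is given here. By the weaker flag of detection it was present in all 3 MPy rats, 2 CIDB rats, 2 TAA rats and 1 DHEA rat, and also in control rat 4 of methylcellulose set 1. The clearest was CIDB, at 7.52, 7.52 and 7.54, against 7.46, 7.46 and 7.47 in corn oil set 3 (limma, adjusted p = 6.63e-06), where 20.4% of the miRNAs were called. This call held in all 17 settings tried, and the other 5 were lost with slide as a block. In DMN, an alkylating nitrosamine, 23.5% of the miRNAs were called (miR-18a: limma, adjusted p = 0.00181), in AA 13.6% (0.0393) and in MPy, an antihistamine, 18.5% (0.00219). The adjusted p in DHEA was 0.00642, lost without DHEA rat 2 (0.0945), and in TAA 0.00262. The AA call was lost in 4 of the 6 fits that left out 1 rat (adjusted p = 0.0702 without AA rat 1, 0.285 without AA rat 2, 0.188 without control rat 5 and 0.15 without control rat 6). The AA (limma, adjusted p = 0.132) and DHEA (0.688) calls were also lost under the value table's assignment, while those in TAA (0.00541) and MPy (0.00863) were made.

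**Figure D2:**
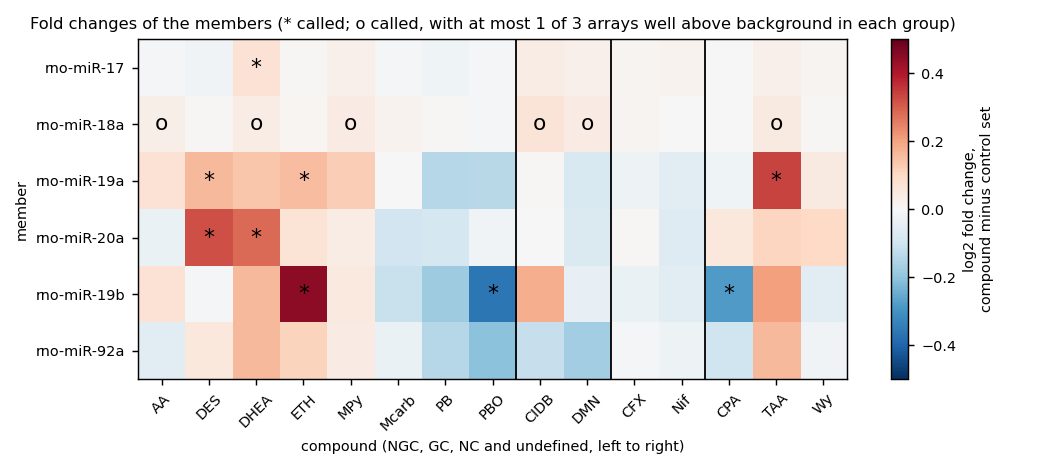
Log2 fold change of each member (rows) against the control set in each of the 15 compounds (columns, in the order NGC, GC, NC and undefined), with stars for called values and circles for calls in which at most 1 of 3 arrays per group was well above background. The strongest cells are miR-19b in ETH (0.45) and PBO (-0.36), miR-19a in TAA (0.34) and miR-20a in DES (0.32).

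Read by compound, the fold changes of the members had the same sign in some livers. All 6 members had positive fold changes in DHEA, ETH, MPy and TAA, and all 6 had negative ones in PBO, where 2 members lay below all controls as 21% of all miRNAs did. These counts include miR-18a, at background and not read for direction, and values close to no change, such as miR-17 in ETH (0.0045). The share of all tested miRNAs with the same sign is not given here, so the counts of signs alone do not set the members apart. In DHEA the median log2 fold change of the members was 0.15, against -0.0042 over all tested miRNAs, and 4 members lay above all controls where 19.1% of all miRNAs did. In TAA the median was 0.13, with 3 members above all controls (17.9% of all miRNAs). In PB 5 of 6 fold changes were negative with a median of -0.12, and 3 members lay below all controls (9.26% of all miRNAs), although none was called and 3.09% of all miRNAs were. No member was called in Wy, a PPARα agonist (25.9% of all miRNAs called), or in Mcarb (1.85%). In the non-carcinogens CFX, an antibiotic, and Nif, a calcium channel blocker, 0 of the 162 tested miRNAs were called, members included. In the processed signal scaled by all probes 4 of 6 members were negative in TAA, 3 in MPy and 1 in ETH, while all 6 stayed positive in DHEA and negative in PBO. Under the value table's assignment all 6 members were again positive in TAA, with a median of 0.11, and negative in PBO, where miR-19a, miR-19b and miR-92a were all called, as 15.4% of all miRNAs were, and the median was -0.13. ETH and MPy then had 5 positive members each, with miR-17 at -0.0093 in ETH and miR-19b at -0.050 in MPy. DHEA then had 4 positive members with a median of 0.030, and DES 6 with a median of 0.059. The compounds of set 1 share the same 3 control rats, as do those of set 5, so their fold changes are not independent.

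The 21 group means were put in order for each member. miR-19a was highest in TAA (8.31 ± 0.12, SD, n = 3) and lowest in PBO (7.89 ± 0.056), and miR-19b was highest in ETH (9.90 ± 0.18) and lowest in PBO (9.09 ± 0.11). miR-20a was highest in DES (8.80 ± 0.077) and lowest in Mcarb (8.40 ± 0.027). miR-92a was highest in the vehicle rats of set 6 (8.88 ± 0.057) and lowest in PBO (8.53 ± 0.15). For these 4 members all 20 neighbouring pairs in the order overlapped in their values. For miR-17, highest in DHEA (7.66) and lowest in DES (7.55), 19 of 20 did. The same number overlapped for miR-18a, whose order is not read because only 1 array was well above background. Groups sorted by their means tend to overlap with their neighbours, and no share over all tested miRNAs is given here. These counts therefore show nothing particular to the members. Under the value table's assignment DES and DHEA exchange their arrays. miR-20a is then highest in DHEA, and miR-17 highest in DES and lowest in DHEA.

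The vehicle groups themselves differed, with 8 calls of members where 8.8% of all comparisons were called. Rats of methylcellulose set 6, all scanned on day 1, had more miR-19a, miR-19b and miR-20a than those of the methylcellulose sets scanned on days 2 and 3. Set 1 minus set 6 was -0.28 for miR-19a (limma, adjusted p = 0.000237), -0.35 for miR-19b (0.00231) and -0.26 for miR-20a (0.0162), where 20.4% of all miRNAs were called. The differences from set 5 were -0.22, -0.26 and -0.27 (limma, adjusted p = 0.00778, 0.0452 and 0.0282; 9.26% called), and miR-19a was also lower in set 2 (-0.18; limma, adjusted p = 0.0280; 6.79% called). Over the vehicles, miR-19a was 0.15 higher in the corn oil sets than in the methylcellulose sets (limma, adjusted p = 0.000449; 34% called). Under the value table's assignment the same arrays carry other set numbers: the differences given for sets 1, 5 and 2 minus set 6 then belong to sets 2, 1 and 5, and the corn oil difference is unchanged.

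Vehicle sets and scan days overlapped only in part, and corn oil was scanned on day 1 alone, so vehicle set and day cannot be fully told apart. The mean of miR-19a was 8.19 over the arrays of day 1, 8.03 over day 2 and 8.04 over day 3, and that of miR-20a was 8.68, 8.53 and 8.54. The means of miR-19b were 9.53, 9.45 and 9.49 and those of miR-92a 8.79, 8.74 and 8.72. With scan day or slide as a block, none of the 8 calls was made by limma. With scan day as a block, set 1 minus set 6 was still -0.17 for miR-19a (adjusted p = 0.235), -0.30 for miR-19b (0.235) and -0.15 for miR-20a (0.564), and corn oil minus methylcellulose was 0.066 for miR-19a (0.601).

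**Figure D3:**
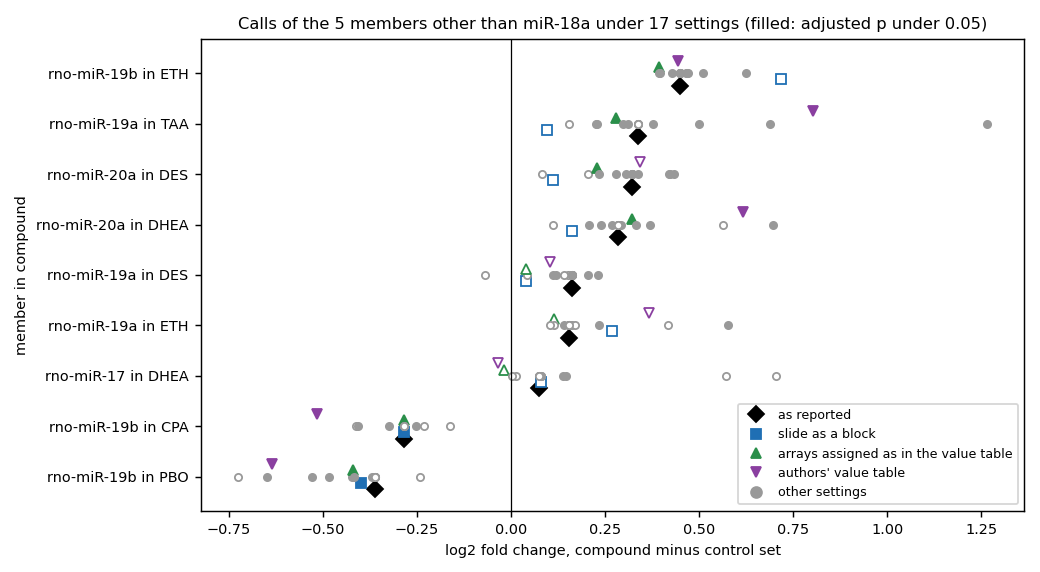
Log2 fold change (x axis) of the 9 calls of the members other than miR-18a under 17 settings of the processing, with diamonds for the values as reported, squares for slide as a block, triangles for the value table and its assignment, circles for the other settings, and filled symbols where the adjusted p was under 0.05. miR-19b in ETH was called in 15 settings, miR-19b in PBO and miR-19a in TAA in 14, miR-20a in DHEA in 13, and miR-20a in DES and miR-19b in CPA in 12, while miR-19a in ETH was called in 7.

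Comparing compounds that share a control set removes the control rats from the difference. Over 20 such pairs, 31 of 120 differences between compounds were called for the members, against 18% for all tested miRNAs. The widest was miR-19b in ETH minus PBO, with a log2 difference of 0.81 (limma, adjusted p = 2.02e-10) where 27.8% of all miRNAs were called. The ETH livers, at 9.70 to 10.02, were well apart from the PBO livers, at 9.02 to 9.22. The difference was 1.12 with slide as a block (limma, adjusted p = 0.00437). These compounds were dosed for 14 and 3 days.

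TAA and Wy were hybridized on the same slide, slide 4, and 17.9% of all miRNAs were called between them. They were dosed for 7 and 3 days. miR-19a was 0.29 higher in TAA (limma, adjusted p = 5.98e-05), as the TAA livers at 8.19 to 8.44 lay above the Wy livers at 8.02, 8.02 and 8.00. miR-19b was 0.26 higher in TAA (limma, adjusted p = 0.0257), where Wy was at 9.25, 9.27 and 9.39. Within the set 5 compounds, DES was above PBO for miR-19a (0.30), miR-19b (0.35), miR-20a (0.34) and miR-92a (0.26), all called where 35.2% of all miRNAs were. DES and PBO shared no slide or scan day, and none of these 4 differences was called with slide as a block (0.17, 0.52, 0.14 and 0.00033). They were 0.22, 0.43, 0.31 and 0.34 under the value table's assignment, which puts both on slide 6, and all were then called (limma, largest adjusted p = 0.00223). DES and ETH diverged within the cluster: miR-19b was lower in DES (log2 difference -0.46) and miR-20a higher (0.25), both called where 46.3% of all miRNAs were. Neither was called with slide as a block (-0.60 and -0.091), and under the value table's assignment they were -0.38 and 0.23, both called. DES and ETH were dosed for 3 and 14 days.

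The study compared carcinogens with non-carcinogens and the carcinogen classes with each other, and no member passed the adjusted threshold in these comparisons. With the compound as the unit, limma called none of the 18 member comparisons over carcinogens against NC, NGC against GC and NGC against NC, nor any of the 162 miRNAs. Before adjustment 9, 19 and 11 miRNAs had a p under 0.05, and the only member among them was miR-18a in NGC minus GC (limma, adjusted p = 0.417), whose values were at background and get no difference here. For that comparison an exact two-sided permutation of the class labels gave p = 0.0222, the smallest possible and the lowest of the 18 computed. It ranks compounds by values at background, so no order of the compounds is read from it. That p was 0.0889 with scan day as a block and 0.2 or 0.111 in the processed signal, by the scaling. For miR-19b the mean log2 fold change was 0.021 ± 0.22 (SD) over the 10 carcinogens and -0.043 over the 2 non-carcinogens (exact two-sided permutation of the class labels, p = 0.667; smallest possible 0.0152). Fold changes of miR-19b ran in opposite directions within the NGC class, from 0.45 in ETH to -0.36 in PBO.

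The members tended to vary together, across rats of the same group as well as across compounds. Over the 15 pairs of members, the median Pearson r was 0.36 over the 63 arrays, 0.50 over the deviations from the group means and 0.45 over the 15 fold changes. The medians over all 13041 pairs of tested miRNAs were -0.00062, 0.011 and -0.00064. The points share arrays, slides and control sets, and near-identical members may share signal, so these are descriptions. In DHEA, rat 2 was the highest of the 3 rats for all 6 members. Within groups the closest pairs were miR-19a with miR-20a (r = 0.79), which have different seeds, and miR-19a with miR-19b (r = 0.76).

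Across the 15 compounds, miR-19a followed miR-92a most closely (r = 0.88), and miR-19a and miR-19b had the same sign in 12 of 15 compounds (r = 0.70). miR-20a and miR-19b were the least alike of the 4 members that were well above background on all arrays (r = 0.32). The correlations over fold changes are given for the arrays as filed only, and their order under the value table's assignment is not given here. The 2 probes of a member agreed best for miR-19a (r = 0.95 over 63 arrays) and miR-20a (0.91), less for miR-92a (0.69) and miR-19b (0.68), and least for miR-18a (0.48) and miR-17 (0.46).

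**Figure D4:**
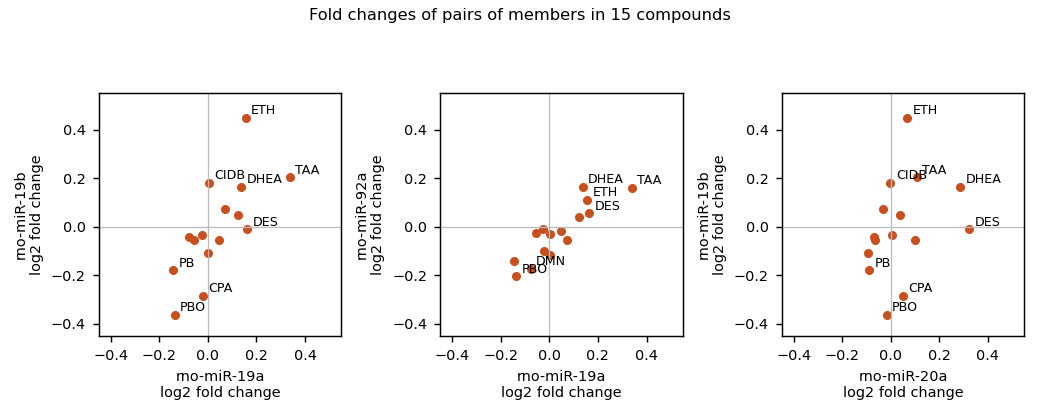
Log2 fold changes of pairs of members in the 15 compounds, 1 point per compound, with the compounds of larger change named. With the arrays as filed, the miR-19a and miR-92a fold changes lie near a line (r = 0.88), while miR-20a and miR-19b scatter (r = 0.32), with DES high in miR-20a and ETH high in miR-19b.

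Outside the cluster, the miRNAs whose 21 group means correlated best with the mean of the members were miR-466b (r = 0.64), miR-872 (0.63), miR-199a-3p (0.62), let-7e (0.61) and miR-126 (0.60). Of these, miR-466b was well above background on 1 array and miR-872 on 16, while the other three were so on all 63. Over the 15 fold changes, with the arrays as filed, their r was 0.67, 0.34, 0.44, 0.45 and 0.44. The most opposite patterns, added after their values were seen, were those of miR-451 (r = -0.67), miR-22 (-0.65) and miR-32 (-0.65), of which miR-32 was well above background on 2 arrays.

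Of 7 paralogues and seed relatives on the array, miR-106b, miR-93, miR-25 and miR-32 were detected and tested. miR-32, on chromosome 5, shares the seed of miR-92a but lies outside the paralogous cluster. Of their 60 comparisons with a control set, 19 were called higher (31.7%) and 0 lower, where 7.57% of all comparisons were called higher. With slide as a block 2 were called higher (3.33%, against 3.37% of all comparisons called), and 5 in the processed signal scaled by all probes (8.33%, against 13.5%). miR-32 was not called in any compound by limma. miR-93 was called higher in 9 compounds (AA, CIDB, DES, DHEA, DMN, Mcarb, MPy, TAA and Wy), by 0.050 to 0.089 on the log2 scale. miR-106b was higher in AA (0.12), DES (0.15), DMN (0.13), MPy (0.12) and Wy (0.13), and miR-25 in CIDB (0.17), DES (0.13), DMN (0.096), MPy (0.12) and Wy (0.092). miR-106b (0.15), miR-25 (0.13) and miR-93 (0.050) were called in DHEA and none of them in DES under the value table's assignment, the calls in AA, Mcarb and TAA were lost, and in MPy and Wy 2 each remained. These DHEA values repeat those of DES as filed, on the same arrays. None of the tested paralogues and seed relatives was called in ETH, PBO and CPA, the livers in which miR-19b was. Whether these profiles differ from those of the cluster was not tested. Of the opposite strands cut from the same hairpins, miR-17-3p was detected on no array and miR-20a* on 2.

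Markers of liver cell types moved in some of the same livers, and their part in the results was not tested. The hepatocyte markers miR-122, miR-192 and miR-194 were well above background on all 63 arrays. Of the leukocyte markers, miR-142-5p was so on 36 arrays and miR-150 on 38. In ETH, where miR-19b was higher, miR-192 was lower (-0.66) and miR-194 was lower (-0.55), while 3 of 5 leukocyte miRNAs on the array were higher, where 16% of all tested miRNAs were called: miR-142-3p (0.32), miR-142-5p (0.091) and miR-146a (0.23). The summed leukocyte signal, led by miR-142-3p, had a log2 mean of 10.53 in ETH and 10.35 in its controls. In PBO it was 10.35 as well, with no leukocyte marker called, and miR-192 was lower (-0.24). With the value table's assignment miR-146a alone of the leukocyte list was called in ETH (0.26), with miR-192 at -0.73 and miR-194 at -0.63, and in PBO miR-192 (-0.31), miR-194 (-0.22), miR-150 (-0.083) and miR-143 (-0.17) were called lower.

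In PBO the erythroid markers miR-144 and miR-451 had a summed log2 signal of 10.65 (10.16 to 11.31), led by miR-451, against 10.07 (9.82 to 10.40) in the controls, with neither called (miR-451: 0.65; limma, adjusted p = 0.223). In CPA the summed leukocyte signal was 10.15, against 10.27 in its controls, and no marker of any cell type was called. In CIDB the summed hepatocyte signal, led by miR-122, was 14.44 (14.33 to 14.60) against 14.78 (14.71 to 14.81) in corn oil set 3. miR-122 (-0.33) and miR-192 (-0.50) were called lower there, as was miR-223 (-0.15) among 5 leukocyte markers, where 20.4% of all tested miRNAs were called. The erythroid sum in CIDB was 9.58 (9.29 to 9.94) against 10.15 (9.83 to 10.55), with neither marker called. In TAA the leukocyte signal was 10.39 against 10.35, and 1 of 5 tested markers of stellate, smooth muscle and endothelial cells, miR-143, was lower (-0.19). In DES, where miR-20a and miR-19a were higher and 37% of all tested miRNAs were called, 2 leukocyte markers were lower, among them miR-142-3p (-0.52), and miR-192 was higher (0.26). In DHEA miR-192 was lower (-0.36) and no leukocyte marker was called. The value table's assignment exchanged these, with miR-192 higher in DHEA (0.26) and lower in DES (-0.47) and both leukocyte markers, miR-142-3p (-0.52) and miR-142-5p (-0.076), lower in DHEA, and miR-143 was not called in TAA (-0.13).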

How the data were processed

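Total liver RNA of 63 rats was hybridized to single-colour Agilent miRNA arrays. The authors deposited scanner files from Feature Extraction (10.7.3.1) with spot intensity on a linear scale, and a table of log2 values that their methods describe as AgiMicroRna RMA without background correction. The centring of that table is not given in the sources used here. Spot flags and names were read as other columns, per the file headers.

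Mean spot intensity was used without background correction. Spots with outlier flags (2.87%) and control spots were left out, arrays were quantile normalized, spots of a probe averaged, log2 taken, and the 2 probes (20 spots) of a member combined by median polish. No spot was saturated. The 162 of 350 miRNAs detected on at least 1 array were tested with limma (3.58.1, R 4.3.3) on 21 groups, with Benjamini-Hochberg adjustment. The scripts were tested on simulated data. Members, lists and tests were chosen with earlier results of these data known; miRNAs named outside the cluster are those of the lists, and the 5 most alike by r over 21 group means; the 3 most opposite were added after their values were seen. The number of arrays limits the precision. Alternatives changed values, scaling, background, probes, filter, slide, scan day, array assignment, reference and rats.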

Additional observations from a re-analysis of the deposited data

Results flagged for a closer look

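Of the differences between compounds that share a control set, 7 were called by limma both without and with slide as a block in the same direction, out of 31 called without it and 9 called with it. The 3 of miR-18a, at background in both compounds, are left out. The other 4 are given as log2 differences, first compound minus second. miR-19b in ETH minus PBO was 0.81 (adjusted p = 2.02e-10), and 1.12 with slide as a block (0.00437).

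TAA livers stood above those of Wy for miR-19a and miR-19b, and above those of AA for miR-19a. TAA, Wy and AA were dosed for 7, 3 and 14 days. miR-19a in TAA minus Wy was 0.29 (adjusted p = 5.98e-05; 6.53e-05 with slide as a block), and in AA minus TAA -0.27 (0.000322), or -0.23 with slide as a block (0.00834). miR-19b in TAA minus Wy was 0.26 (0.0257; 0.0334 with slide as a block).

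None of these compounds had a value table column that followed another array. Single rats were not tested as outliers in groups of 3.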

How the results depend on the processing

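The count of 15 calls over 90 comparisons of a member with its control set was 3 with slide as a block (3.33%), 3 under the value table's assignment of the arrays with slide as a block (3.33%), 4 when only the compound and its control set were fitted (4.44%), and 28 when the processed signal was scaled by the 75th percentile of the detected miRNAs (31.1%). Over all tested miRNAs the shares called in these settings were 3.37%, 3.87%, 6.87% and 20.1%, against 14.3% as reported. It was 12 to 17 when 1 rat was left out (12 without DHEA rat 2). In other settings it lay between 11 and 19. The 9 calls of members other than miR-18a were 7 to 11 without 1 rat.

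The 8 calls between vehicle groups became 3 with the 75th percentile of all probes as the scale, 4 with slide as a random block, and 0 with slide as a block, scan day as a block, or the value table assignment and slide as a block. Without 1 rat there were 5 to 11. The 31 calls between compounds became 9 with slide as a block and 14 with the value table assignment and slide as a block, and 20 (without DHEA rat 2) to 35 without 1 rat. The 0 calls between classes held in every setting run. Over all tested miRNAs 8.8% of the vehicle comparisons and 18% of those between compounds were called as reported. Their shares in the other settings are not given here, so a fall particular to the members cannot be read from these counts.

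PB and CPA share replicate numbers with their controls, but same-numbered rats did not deviate together (r = -0.26 to 0.05 over 162 miRNAs). The 1 call there became 0 with the replicate block (miR-19b in CPA, log2 fold change -0.28, adjusted p = 0.0635) and 0 when only these groups were fitted.

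Of the single calls, 6 values turned negative. With the value table assignment and slide as a block miR-18a was at -0.00073 in AA and -0.033 in DHEA, and miR-19a at -0.069 in DES. In the deposited value table miR-17 and miR-18a in DHEA were at -0.035 and -0.062, and miR-17 in DHEA was at -0.019 with its assignment alone. miR-18a was not well above background on any AA, DHEA, DES or methylcellulose array, so no change of direction is read from its values. The cause of the changes in the other members was not tested.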

Other observations

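Of the growth and damage miRNAs listed beside the cluster, miR-34a had the widest changes. miR-34a, a target of p53, was called higher by limma in CIDB (log2 fold change 3.44), DMN (1.96) and TAA (1.96), as well as in ETH (1.89), where miR-19b was. It was also higher in DHEA (0.40), AA (0.55) and MPy (1.12). With the arrays taken as the value table has them, it was not called in DHEA (0.13) but was in DES (0.52), and the others kept their calls (0.54 to 2.01 where their values moved). miR-21, an injury and growth miRNA, was higher in CIDB (0.70) and DMN (0.30) and lower in DES (-0.22, or -0.21 and not called with the value table's arrays) and DHEA (-0.27, or -0.22). In CIDB and DMN, no member of the cluster other than miR-18a was called with the values used in the report. miR-221, known for repressing the cell cycle inhibitor p27, was higher in DES (0.067) and Wy (0.11) and lower in DHEA (-0.079) and TAA (-0.056). With the value table's arrays DES was lower (-0.080), DHEA higher (0.067) and TAA not called. miR-222 was not detected.

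In DMN, 4 of 5 leukocyte miRNAs were higher and 4 of 5 tested stellate, smooth muscle and endothelial miRNAs lower, where 23.5% of all tested miRNAs were called, and the summed leukocyte signal had a log2 mean of 10.73 against 10.29 in its controls. All 4 members that were well above background on every array had negative log2 fold changes there, down to -0.17 for miR-92a, none of them called.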
